A study of Homo sapiens with 4 samples.

Results

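The replication-dependent histone genes were taken as the GENCODE 44 protein-coding genes on chromosomes 1 and 6 whose symbols start with H2AC, H2BC, H3C or H4C, together with H1-1 to H1-6. The rule gave 68 of 20046 protein-coding genes, of which 6 encode linker histone H1, 17 encode H2A, 18 encode H2B, 13 encode H3 and 14 encode H4. On chromosome 6 lie 55 of them, at 1q21 another 11 and at 1q42 the remaining 2. The data were Flag ChIP-seq peak lists from HK1, an established nasopharyngeal carcinoma cell line, engineered to overexpress Flag-tagged FLI1. Cells of both conditions carried the tagged factor and were treated for 24 h, with PBS as the control or with IFN-γ, a cytokine of activated T cells. There was 1 Flag library per condition, so no difference between the conditions could be tested, and the antibody read the overexpressed factor rather than endogenous FLI1. The 2 matching input libraries were not used here.

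These genes supply the histones that package newly copied DNA. They are transcribed in S phase, lack introns, and give mRNAs that end in a stem-loop bound by SLBP instead of a poly(A) tail. Their transcription is organised in histone locus bodies around the coactivator NPAT, and many H2A and H2B genes share a short promoter in head-to-head pairs. FLI1 is an ETS transcription factor that binds a GGAA core, and its preferred site extends the core to CCGGAAGT or CAGGAAGT.

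The peak lists held 30819 peaks in the control library and 39654 with IFN-γ, with each peak's fold enrichment over local background at its summit as the authors deposited it. Depth was not given in the lists, so the fragments piled up at each summit were solved, as whole numbers, from the fold enrichment and the p-value. The solutions gave back the deposited −log10 p with a largest relative error of 6.21e-06. The IFN-γ library was 1.46 times as deep as the control library by the lowest backgrounds in the lists. A gene was counted as having a promoter peak if a peak overlapped the 1 kb either side of the transcription start site (TSS) of any of its transcripts.

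The sequences below are the 201 bases centred on the control summit, on GRCh38, for the 5 histone peaks with the best mean rank by −log10 p, for the strongest peak of H1, and for the peak with the lowest ratio of IFN-γ to control signal. Each is written 5′ to 3′ on the strand of the named gene with the summit at base 101. Capitals mark GGAA cores, which read TTCC on the other strand, and the 1 full ETS octamer among them, near H2BC12. They show that a GGAA core lay within 17 bases of each of these summits. The same distance is not given for other summits. Within 100 bp, the core was at 89.7% of histone and 93.5% of all coding promoter summits in the control library.
H4C13, chr6:27873497-27873697, minus strand: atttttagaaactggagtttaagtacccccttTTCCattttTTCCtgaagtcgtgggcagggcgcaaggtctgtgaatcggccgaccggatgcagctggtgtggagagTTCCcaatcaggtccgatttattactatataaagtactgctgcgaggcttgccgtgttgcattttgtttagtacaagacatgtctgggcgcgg
H4C3, chr6:26103993-26104193, plus strand: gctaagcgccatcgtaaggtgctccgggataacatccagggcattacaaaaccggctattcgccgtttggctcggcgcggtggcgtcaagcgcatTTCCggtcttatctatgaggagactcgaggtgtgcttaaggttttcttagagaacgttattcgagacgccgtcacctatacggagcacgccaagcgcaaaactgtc
H2BC12, chr6:27146015-27146215, minus strand: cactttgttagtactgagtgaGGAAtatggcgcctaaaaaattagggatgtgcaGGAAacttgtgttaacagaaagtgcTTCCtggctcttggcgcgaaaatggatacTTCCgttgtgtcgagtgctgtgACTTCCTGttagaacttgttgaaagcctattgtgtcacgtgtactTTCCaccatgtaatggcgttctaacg
H4C8, chr6:26285508-26285708, minus strand: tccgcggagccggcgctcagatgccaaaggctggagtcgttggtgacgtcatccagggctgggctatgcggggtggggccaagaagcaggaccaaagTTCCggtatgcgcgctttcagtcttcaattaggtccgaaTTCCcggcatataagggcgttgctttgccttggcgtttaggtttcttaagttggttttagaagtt
H4C2, chr6:26027023-26027223, minus strand: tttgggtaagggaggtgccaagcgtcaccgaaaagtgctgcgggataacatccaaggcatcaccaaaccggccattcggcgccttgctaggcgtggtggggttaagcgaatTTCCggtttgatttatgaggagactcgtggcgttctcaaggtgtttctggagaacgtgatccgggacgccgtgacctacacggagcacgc
H1-4, chr6:26156246-26156446, plus strand: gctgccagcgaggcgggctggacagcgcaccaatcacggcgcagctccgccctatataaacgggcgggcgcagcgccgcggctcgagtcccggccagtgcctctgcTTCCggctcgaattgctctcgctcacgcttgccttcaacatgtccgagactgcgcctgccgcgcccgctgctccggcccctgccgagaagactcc
H2AC6 (lowest ratio), chr6:26124191-26124391, plus strand: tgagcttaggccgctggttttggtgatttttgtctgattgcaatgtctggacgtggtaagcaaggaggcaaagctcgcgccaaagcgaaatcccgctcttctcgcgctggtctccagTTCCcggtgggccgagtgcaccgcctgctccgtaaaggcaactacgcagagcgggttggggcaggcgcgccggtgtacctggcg

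To see how often FLI1 occupied these promoters, genes with a promoter peak were counted beside all protein-coding genes. In the control library 40 of the 68 histone genes (58.8%) had a promoter peak, where 58.9% of all coding genes did. In the IFN-γ library 35 (51.5%) had a promoter peak, with a background of 55.6%. Peaks in both libraries were found at 34 histone genes (50%), beside 52.7% of all coding genes. The control share was near the background, and the other shares lay a few points below it. Because neighbouring histone genes share peaks, the calls rested on 39 distinct peaks in the control library and 30 with IFN-γ.

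The histone peaks were weak by comparison. The median fold enrichment of the strongest promoter peak per gene was 6.32 in the control library and 6.54 with IFN-γ, against 10.5 and 8.81 over all coding genes with a peak. In the control library, 8 of the 68 histone genes had a peak of at least 10-fold, beside 30.8% of all coding genes. In the IFN-γ library the number was 6, beside 24.1%. Per distinct peak, the median summit held 15 fragments in the control library, against 21 over all coding promoter peaks, and 25 against 26 in the IFN-γ library. The local background was higher at the histone summits, with medians of 2.14 against 1.36 fragments in the control library and 3.64 against 2.66 in the IFN-γ library. The part of this background in the lower fold enrichments was not tested. The plot of fold enrichment in gene order shows the few tall peaks among low or absent ones.

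**Figure D1:**
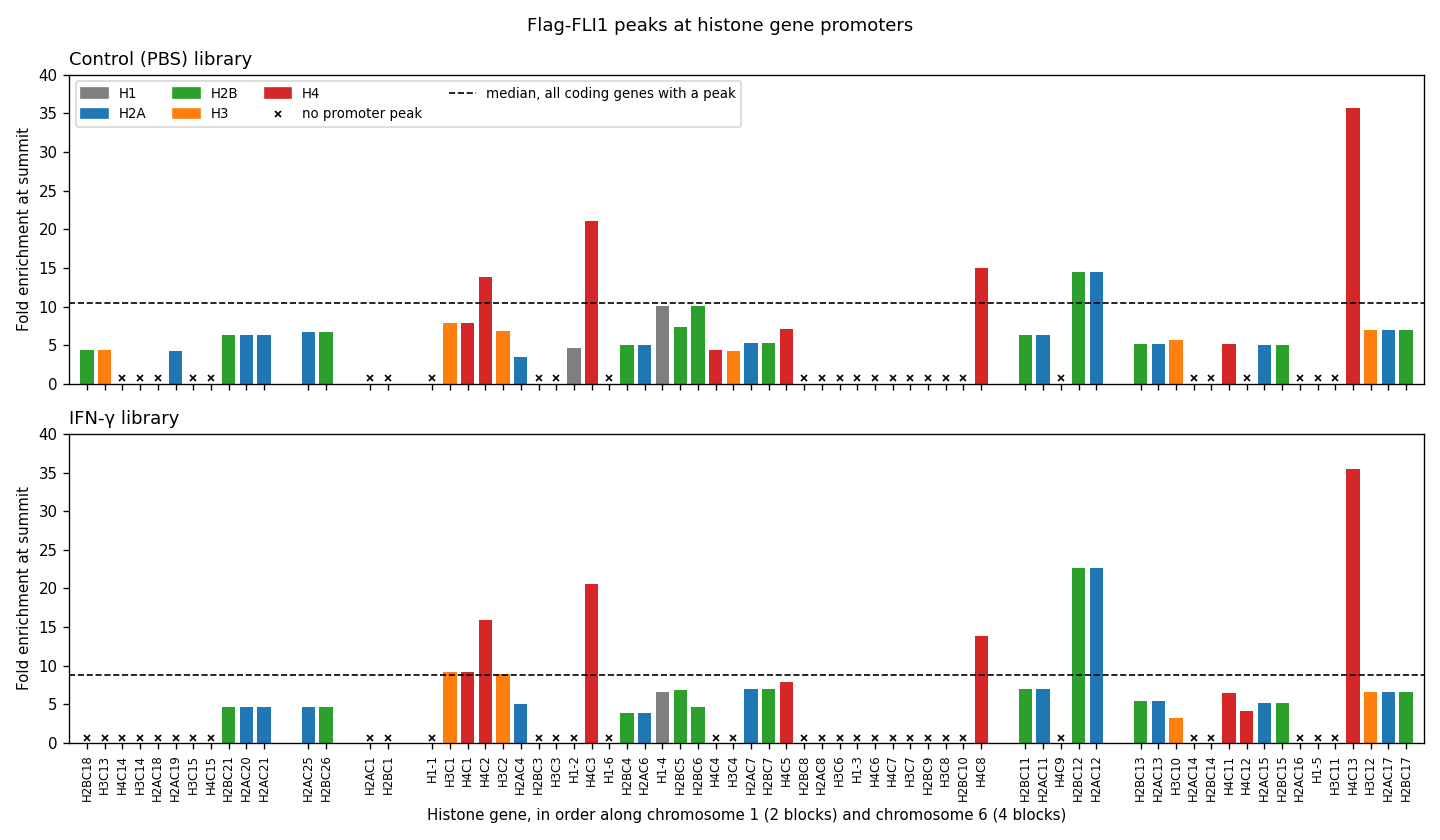
Fold enrichment at the summit of the strongest promoter peak (y axis) of each of the 68 histone genes in chromosomal order (x axis), in the control library (top) and the IFN-γ library (bottom), coloured by histone class. Crosses mark genes without a promoter peak and the dashed line is the median of all coding genes with a peak (10.5 and 8.81), which H4C2, H4C3, H4C8, H4C13, H2BC12 and H2AC12 exceed in both libraries.

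The highest fold enrichments were at genes of H4, the core histone that pairs with H3. Of the 14 H4 genes, 8 (57.1%) had a promoter peak in the control library and 8 with IFN-γ, beside 58.9% and 55.6% of all coding genes. The median fold enrichments at the H4 genes were 10.8 and 11.5. The histone genes of the other classes had medians of 6.28 and 5.41, so the H4 medians lay above those of all coding genes (10.5 and 8.81) and the others below. H4 supplied 4 of the 8 histone genes at or above 10-fold in the control library and 4 of the 6 with IFN-γ. The H4 peaks spanned the widest range of all classes, from 4.43 at H4C4 to 35.7 at H4C13 in the control library and from 4.12 at H4C12 to 35.5 at H4C13 in the IFN-γ library. As classes overlap in range and each value comes from 1 library, the class medians are a description.

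H4C13 (ENSG00000275126) had the strongest peak of all histone genes, with 96 fragments and 35.7-fold enrichment in the control library. With IFN-γ it held 160 fragments at 35.5-fold, on a background that went from 1.72 to 3.54 fragments. It ranked 498 of 30819 control peaks and 397 of 39654 IFN-γ peaks by −log10 p. The summit lay at -63 bp from the MANE TSS in the control library and at -75 bp with IFN-γ, in the promoter sequence shown above, where a TATA-like run (tatataaa) and GGAA cores lie close to it.

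H4C3 (ENSG00000197061) held 55 fragments at 21.1-fold in the control library and 114 at 20.5-fold with IFN-γ. H4C2 (ENSG00000278705) held 43 fragments at 13.8-fold and 85 at 15.9-fold. The summits of these genes were not in the promoter but within the coding sequence, at 160 bp downstream of the TSS in the control library at both genes, and at 143 bp (H4C3) and 156 bp (H4C2) in the IFN-γ library. Both coding sequences hold CCGGAA, as TTCCGG, at coding base 141, and the summits lay 5 and 12 bp from its start at H4C3 and 11 and 15 bp from it at H4C2. Among the 14 H4 coding sequences, which spell nearly the same protein with different codons, only 1 other held CCGGAA, that of H4C7 at base 20, and H4C7 had no promoter peak in either library. Among the remaining 11, the summits of H4C13, H4C8 and H4C1 were upstream of the MANE TSS, as was that of H4C12 with IFN-γ. Coding sequence summits were also found without CCGGAA, in the control library at H4C4 (coding base 49) and H4C5 (coding base 4). The strongest IFN-γ summit of H4C5 and both summits of H4C11 were downstream.

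H4C8 (ENSG00000158406) held 44 fragments at 14.95-fold in the control library and 106 fragments at 13.8-fold with IFN-γ. Its background went from 2.01 to 6.73 fragments, so the fold enrichment stayed similar while the pileup was higher by more than the depth ratio. The control summit, at -74 bp, sat on a GGAA core that is part of CCGGAA, and the IFN-γ summit was at -89 bp. H4C1 shared its peak with H3C1 at 28 fragments and 7.88-fold in the control library and 47 fragments and 9.13-fold with IFN-γ, with the summit at -78 and -121 bp from the H4C1 TSS and over 1 kb downstream of the TSS of H3C1. H4C5 had a pair of peaks, of which the strongest was 7.14-fold in the control library, over the start of the coding sequence, and 7.85-fold in the IFN-γ library, downstream of the gene. H4C11 was the weakest H4 gene with a peak in both libraries, at 5.09-fold and 6.47-fold.

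Among the H2A and H2B genes, whose proteins form the dimers of the nucleosome, 12 of 17 H2A genes and 12 of 18 H2B genes had a promoter peak in the control library, and 11 of each in the IFN-γ library. Median fold enrichments were 5.79 and 5.14 for H2A and 6.30 and 5.41 for H2B. The shares with a peak were 70.6% and 64.7% for H2A and 66.7% and 61.1% for H2B, beside 58.9% and 55.6% of all coding genes. Many of the H2A and H2B calls are the same peaks counted for a head-to-head pair, so these shares are a description only. The strongest was the peak of H2BC12 and H2AC12, with 62 fragments at 14.5-fold in the control library and 92 fragments at 22.7-fold with IFN-γ. Its background was similar in both libraries, at 3.36 and 3.10 fragments. The summit lay 740 bp (control) and 726 bp (IFN-γ) from the H2BC12 TSS, beyond the 3′ end of that gene, and is the only printed window with an ETS octamer, written ACTTCCTG. H2BC6 had a peak of 30 fragments and 10.1-fold in the control library and of 25 fragments and 4.64-fold with IFN-γ, but at an alternative TSS, with the summit at -11737 bp from the MANE TSS. By the strongest peak of each gene, the lowest H2A values were those of H2AC4 in the control library (13 fragments, 3.49-fold) and of H2AC6, shared with H2BC4, in the IFN-γ library (21 fragments, 3.93-fold).

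Peaks at the linker histone and H3 genes were few and mostly weak, in classes too small to set their shares against the 58.9% (control) and 55.6% (IFN-γ) of all coding genes. Of the 6 H1 genes, which encode the histones that bind DNA between nucleosomes, 2 had a promoter peak in the control library and 1 with IFN-γ. H1-4 held 40 fragments at 10.1-fold in the control library and 50 at 6.60-fold with IFN-γ, with the summit in its 5′ UTR at 17 and 41 bp from the TSS. H1-2 had its strongest peak at 4.58-fold, in the control library. Of the 13 H3 genes, 6 had a promoter peak in the control library and 4 with IFN-γ, with fold enrichments from 4.27 to 7.88 and from 3.24 to 9.13, and 0 reached 10-fold. H3C2, the strongest peak nearest to an H3 gene, held 21 fragments at 6.84-fold and 36 at 8.95-fold, with the summit in the coding sequence at 87 and 90 bp from the TSS. The plot by class shows the H4 genes reaching highest and the H3 genes all below 10-fold.

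**Figure D2:**
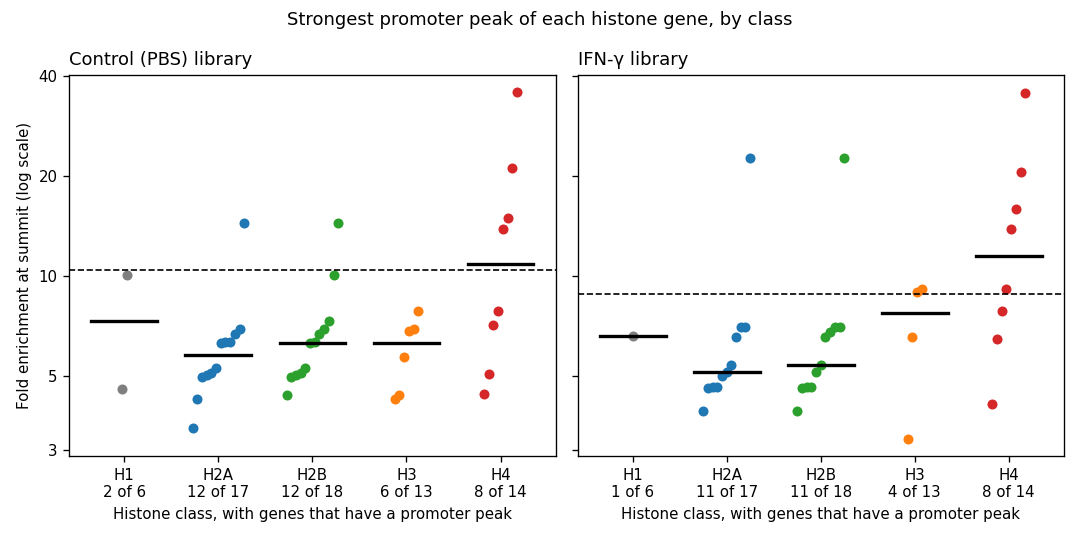
Fold enrichment at the summit of the strongest promoter peak (y axis, log scale) of each histone gene with a peak, by class (x axis, with the number of genes with a peak), in the control library (left) and the IFN-γ library (right). Points are genes, black bars are class medians (10.8 and 11.5 for H4) and the dashed line is the median of all coding genes with a peak; genes that share a peak share a value.

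Many of the genes without a peak were neighbours. In neither library did 27 of the 68 genes have a promoter peak: H1-1, H1-3, H1-5, H1-6, H2AC1, H2AC8, H2AC14, H2AC16, H2AC18, H2BC1, H2BC3, H2BC8, H2BC9, H2BC10, H2BC14, H3C3, H3C6, H3C7, H3C8, H3C11, H3C14, H3C15, H4C6, H4C7, H4C9, H4C14 and H4C15. Over all coding genes the number was 7669 of 20046, a similar share. The longest run was 10 neighbouring genes of the large chromosome 6 block, from H2BC8 to H2BC10, bounded by H4C5 and H4C8, which both had peaks. Runs without a peak were not sought among other coding genes, so their lengths have no background here. When members were split into blocks at gaps over 200 kb, the block from H1-1 to H4C8 had peaks at 18 (control) and 15 (IFN-γ) of 32 genes, that from H2BC11 to H2AC12 at 4 and 4 of 5, and that from H2BC13 to H2BC17 at 10 and 11 of 16. H2AC1 and H2BC1, the isolated pair known for expression in testis, had 0 peaks. At 1q21, 6 and 3 of 11 genes had a peak, and at 1q42 both genes had a peak in both libraries. The 3 IFN-γ calls at 1q21 were a single peak, shared by H2BC21, H2AC20 and H2AC21 and by the promoter of the non-histone gene BOLA1. The IFN-γ calls at 1q42 were also a single peak, of 13 fragments. A missing peak shows only that the site did not pass the cutoff at that library's depth.

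Some histone genes have near-identical copies, and reads that map equally well to several places can be lost or split in counting. How such reads were treated is not given in the sources used here, and their part in the missing peaks was not tested. Within 1 kb of the TSS, 16 of the 68 genes held at least 1 stretch of 150 bases with an exact second copy elsewhere in the genome. All stretches were copied at H4C14, H3C14, H3C15 and H4C15 in the duplicated part of 1q21, as were 87.1% at H2AC18 and 87.0% at H2AC19. Of these 6 genes, 1 had a promoter peak in the control library and 0 with IFN-γ. Without the 16 genes, 32 of 52 (61.5%) had a promoter peak in the control library and 29 (55.8%) with IFN-γ. The run from H2BC8 to H2BC10 held no copied stretch.

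Calls made in a single library came from weak peaks. In the control library only, 6 genes had a peak, beside 6.19% of all coding genes. In the IFN-γ library only, 1 did, beside 2.86%. H2BC18 and H3C13 shared a control peak of 8 fragments at 4.38-fold, H2AC19 had 9 fragments at 4.27-fold, H4C4 had 11 at 4.43-fold and H3C4 had 12 at 4.27-fold. H1-2 had 17 fragments at 4.58-fold in the control library, and an IFN-γ peak of 4.87-fold overlapped that peak but lay just beyond the 1 kb window. H4C12, the gene with a peak in the IFN-γ library only, held 12 fragments at 4.12-fold. All of these were under the median of the histone genes in their library.

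To compare the libraries at the histone genes, overlapping peaks were matched and their summit pileups were compared after scaling by depth. The 28 pairs with at least 1 peak at a histone promoter had a median ratio of IFN-γ to control of 1.03, with quartiles of 0.877 and 1.20. Over 10382 pairs at coding promoters the median was 0.834, and 22 of the 28 histone pairs lay above it. Over all 23472 pairs of overlapping peaks, at promoters or elsewhere, the median was 1.01, close to that of the histone pairs. The exact Clopper-Pearson 95% interval of the ratio, which covers counting error only, lay wholly above 0.834 for 4 histone pairs, where 10.1% of all coding pairs did so. It lay wholly below for 0, where 4.71% of coding pairs did so. The 4 were H4C8 at 1.65 (1.15 to 2.41), H4C3 at 1.42 (1.02 to 2.00), H4C2 at 1.36 (0.930 to 2.01) and H4C13 at 1.14 (0.883 to 1.49). With 1 library per condition these ratios compare libraries, not treatments. Set against 1.01, the median over all overlapping peaks, the intervals of H4C8 and H4C3 lay above and those of H4C2 and H4C13 took it in.

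All 4 belonged to H4 genes and were among the 6 histone pairs with a control pileup of at least 40 fragments, where counting error is smallest. Of the coding pairs at that depth, 16.4% lay above, and their median ratio was 0.841 against 1.25 for the 6 histone pairs. That depth was chosen after the pairs were seen, so this contrast is a description only. The 8 pairs nearest to an H4 gene had a median of 1.23, and 7 of them lay above 0.834. The ratio of the deposited fold enrichments, which takes in each summit's own background, was 0.926 at H4C8, 0.972 at H4C3, 1.15 at H4C2 and 0.993 at H4C13. By that measure H4C8, H4C3 and H4C13 were nearly level between the libraries and H4C2 was somewhat higher with IFN-γ. The 8 H4 pairs ranged from 0.640, at the start of H4C5, to 1.27 at H4C11, with a median of 1.07. The median over all coding pairs was 0.800 and that over the 28 histone pairs was 1.01. At the summits of H4C8, H4C3, H4C2 and H4C13 the backgrounds were 1.65 to 2.19 fragments in the control library and 3.54 to 6.73 in the IFN-γ library.

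Among the other pairs, H2AC7 and H2BC7 shared the second highest ratio, 1.62, but on 11 and 26 fragments, with an interval of 0.775 to 3.64. The summits of that pair lay 305 bp apart, so its ratio compares different positions. Summits were furthest apart at H2AC21 (873 bp) and H2BC15 (840 bp). The 21 histone pairs with summits within 100 bp had a median ratio of 1.02. The lowest ratios were those of a peak over H2AC6 at 0.523 (0.255 to 1.05), which held 21 fragments in the control library and 16 with IFN-γ, of H2BC6 at 0.572 (0.323 to 1.01) and of the peak over the start of H4C5 at 0.658 (0.355 to 1.22). Their intervals took in 0.834. The peak of H2BC12 and H2AC12, second only to H4C13 in control pileup, had a ratio of 1.02 (0.731 to 1.43). The plot of ratios shows how wide the intervals are for all but the deepest peaks.

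**Figure D3:**
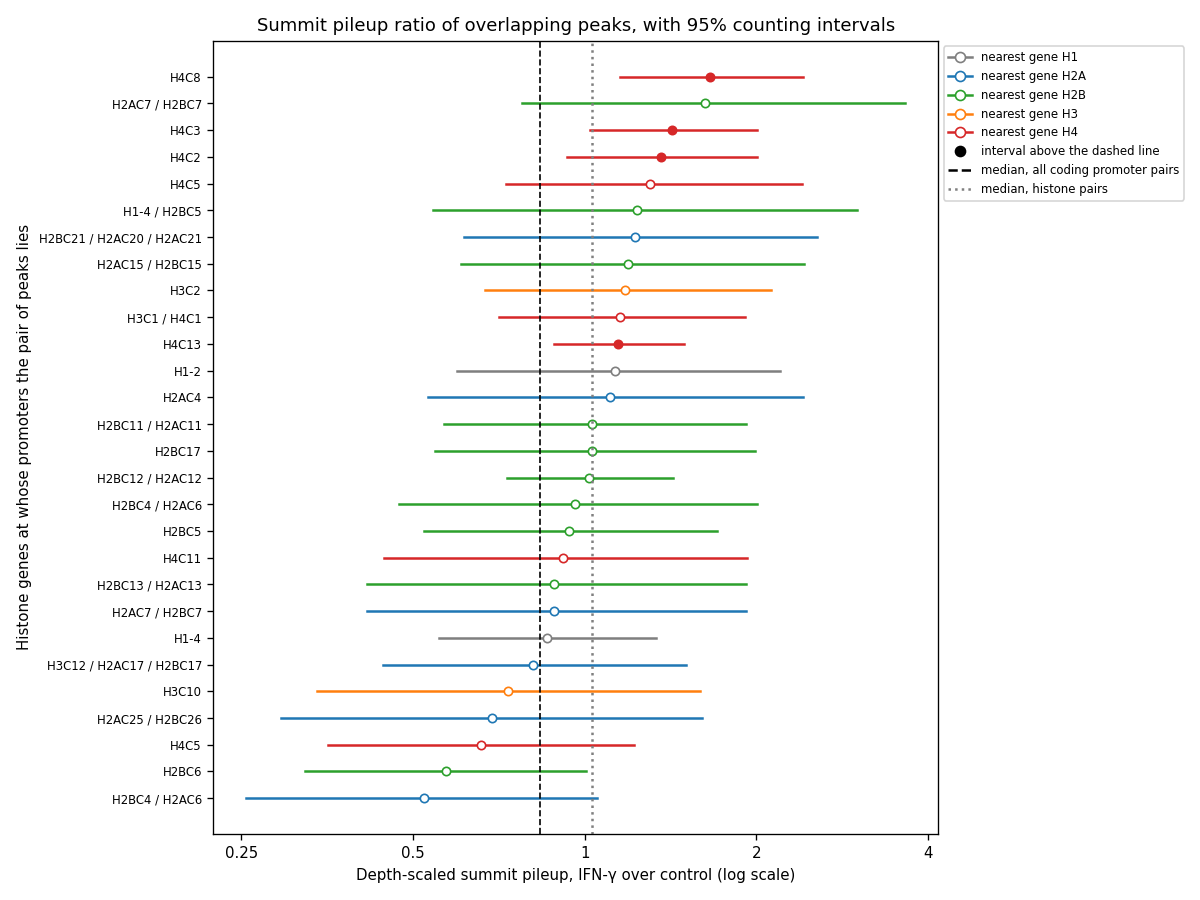
Depth-scaled summit pileup of the IFN-γ library over the control library (x axis, log scale) for the 28 pairs of overlapping peaks at histone promoters (y axis, genes named; some genes have more than 1 pair). Points are ratios and lines are exact 95% counting intervals, coloured by the class of the nearest gene, and the filled points, all H4, are the 4 pairs whose interval lies above the dashed line at 0.834, the median of all coding promoter pairs.

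Most summits of the histone promoter peaks lay inside or beyond the genes. Positions were taken on the MANE transcript of the nearest histone gene. Of the 39 control peaks, 7 had their summit upstream of it and 2 in its 5′ UTR. Another 18 had it in the coding sequence, 1 in the 3′ UTR and 11 downstream. Of the 30 IFN-γ peaks the numbers were 7, 2, 13, 0 and 8. These regions were not counted for other coding promoter peaks, so they describe the histone peaks without a background. Some annotated genes extend beyond this transcript, so an upstream or downstream summit can lie inside the gene, as at H4C8 and H2BC11. Within 200 bp of the MANE TSS lay 41.0% of summits in the control library and 46.7% with IFN-γ, beside 47.1% and 41.9% of all coding promoter peaks. Histone genes are short and have short 5′ UTRs, so a summit near the TSS is often already in the coding sequence. The upstream control summits included those of H4C13, H4C8 and H4C1, with a median of 7.88-fold over the 7, while the coding sequence summits had a median of 5.21-fold.

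None of the shared promoters of head-to-head pairs held a summit. The 13 pairs, 26 genes in all, had start sites 194 to 979 bp apart, with a median of 240 bp. Of these pairs, 9 had a promoter peak in both libraries, and 0 had a summit between the start sites in either library. The same count was not made for head-to-head pairs of other coding genes, so whether 0 is unusual for such short stretches was not tested. At H2BC12 and H2AC12 the peak lay beyond the H2B gene, and at H2AC17 and H2BC17 the summit was in the H2AC17 coding sequence (6.94-fold in the control library and 6.54-fold with IFN-γ). At H2BC4 and H2AC6 the strongest control summit was in the H2AC6 coding sequence, at 119 bp from its TSS. The plot of summit positions shows most H4 summits close to the start site on either side and the H2B summits mostly downstream.

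Full ETS motifs were uncommon at the histone summits. CAGGAAGT or CCGGAAGT, searched on both strands within 100 bp of the summit, was present at 1 of 39 control summits (2.56%, exact interval 0.0649% to 13.5%), against 13.7% of all coding promoter peaks. At the IFN-γ summits it was present at 3 of 30 (10.0%, 2.11% to 26.5%), against 15.8%. The share of all coding promoter peaks thus lay just above the interval of the control library and within that of the IFN-γ library. The H2BC12 and H2AC12 peak held an ETS octamer in both libraries. In the IFN-γ library it was also at the peak downstream of H4C5 and at that of H2BC11 and H2AC11. The summits of these 4 occurrences all lay downstream of the MANE transcript of the nearest histone gene. CCGGAAGT itself was found at 0 histone summits, beside 8.99% of coding promoter peaks in the control library and 9.55% with IFN-γ, with exact upper bounds of 9.03% for 0 of 39 and 11.6% for 0 of 30. The GGAA core, which occurs in most windows of this length, was present at 89.7% and 93.3% of the histone summits and at 93.5% and 96.4% of all. CCGGAA, which is the start of CCGGAAGT and holds the core, was present at 7 control summits (17.9%, against 33.9%) and at 9 IFN-γ summits (30%, against 35.1%), and those of H4C3, H4C8, H4C2, H1-4, H2BC5 and H2BC13 with H2AC13 held it in both libraries. The median GC content at the histone summits was 56.2% in both libraries, lower than the 68.2% and 65.2% of all coding promoter peaks.

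The promoters themselves have another make-up. RefSeq promoter sequences, from 250 bases before to 50 after the start, were matched to 63 of the 68 genes and set beside 15345 coding promoters. CCAAT, the site of NF-Y, was present in 54 of the 63 (85.7%, against 36.6% of all). It was found in every matched H1, H2A, H2B and H3 promoter and in 3 of the 12 H4 promoters. TATAAA was present in 41 (65.1%, against 9.63%), and ATTTGCAT, the octamer of H2B promoters that POU2F1 binds, in 26 (41.3%, against 1.70%), of which 14 were H2B and 11 were H2A promoters. An ETS octamer was present in 0 of the 63, against 9.23% of all, and CCGGAA in 9 (14.3%, against 23.1%), of which 5 were H4 promoters. Within 100 bp of the FLI1 summits, in windows of 201 bases and so shorter than the promoter sequences, CCAAT was at 28.2% of the control histone summits and 15.7% of all coding promoter summits, so it was less frequent than in the promoters for both. ATTTGCAT was at 0 of the 39 histone summits and 0.326% of all. These letter matches describe the windows and are not binding sites.

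**Figure D4:**
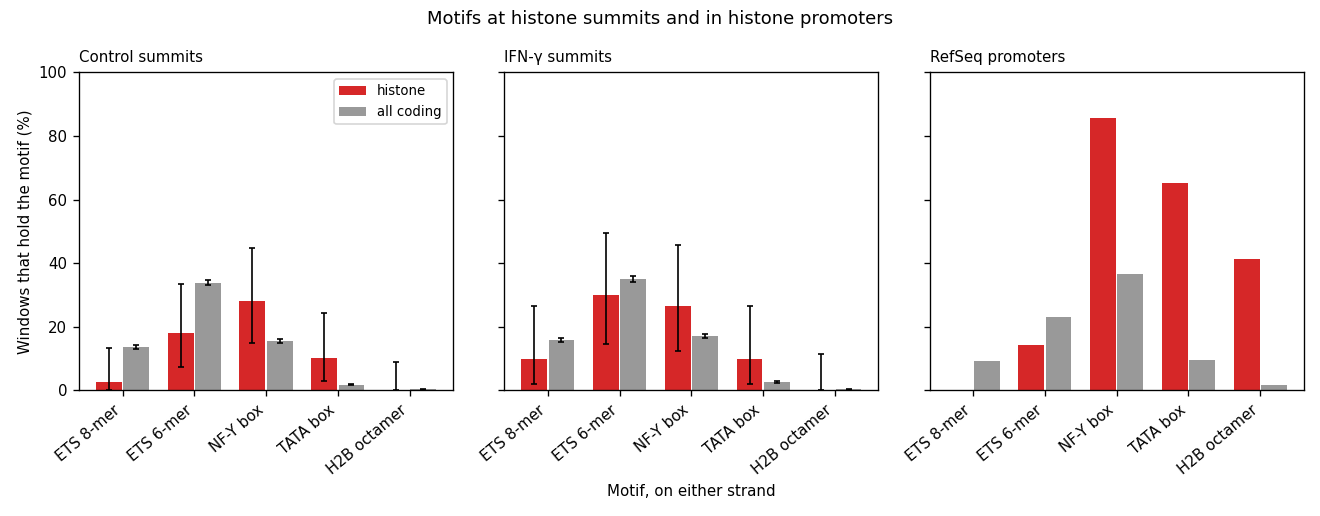
Share of windows that hold each motif on either strand (y axis, %), for histone genes (red) and all coding genes (grey), at control summits, at IFN-γ summits and in RefSeq promoters. The motifs are those named in the text, the 6-mer being the shortened ETS site, and the bars at summits carry exact 95% intervals; the ETS 8-mer is at 2.56% of histone control summits against 13.7% of all, and the NF-Y box is in 85.7% of histone promoters against 36.6% of all.

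Peaks at genes that work with these histones were counted by the same rule. Of 24 genes for histone transcription and mRNA processing, 20 had a promoter peak in the control library and 18 with IFN-γ, with medians of 13.95-fold and 10.05-fold. The values over all coding genes, for this and the lists that follow, were 58.9% and 55.6% with a peak and medians of 10.5-fold and 8.81-fold. NPAT, the coactivator of histone locus bodies, had 65 fragments at 26.4-fold in the control library and 104 at 35.8-fold with IFN-γ. CSTF2, a cleavage factor subunit, stood at 22.9-fold and 27.2-fold, and ERI1, a nuclease that trims the histone stem-loop, at 21.7-fold and 15.4-fold. Of 19 histone chaperone genes, 19 and 18 had a promoter peak, with medians of 12.35-fold and 10.4-fold. DAXX, a chaperone of the variant H3.3, led them at 43.6-fold and 47.2-fold, followed by HIRA at 23.2-fold and 27.35-fold.

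Histone genes expressed outside S phase or located elsewhere were counted as well. Of these 13 genes, 11 had a promoter peak in the control library and 10 with IFN-γ, with medians of 11.25-fold and 7.36-fold. H3-3B, a source of H3.3, stood at 19.65-fold and 9.91-fold, and H4C16, the H4 gene on chromosome 12, at 14.1-fold and 33.35-fold on 51 and 102 fragments. The histone clusters were split only at gaps over 1 Mb, so they take in stretches between the blocks split at 200 kb. The 21 other protein-coding genes inside these clusters had promoter peaks at 11 genes in each library, with medians of 8.97-fold and 7.22-fold. ABT1, which encodes a basal transcription activator, reached 36.9-fold and 39.0-fold and ZNF322 27.5-fold and 30.2-fold. These peaks, stronger than those of nearly all histone genes, lay between the blocks and not inside them. Inside the blocks and away from histone promoters, the only coding promoter with a peak was that of HFE, at 8.97-fold and 7.22-fold.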

How the data were processed

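Flag ChIP-seq of HK1 cells was analysed from 2 deposited peak lists, 1 per condition. According to the methods and the submitters' processing notes, the authors trimmed reads with Cutadapt 1.18, used Bowtie2 2.3.4.1 for mapping to GRCh38 and Picard against duplicates, and ran MACS2 2.1.2 at a stated p cutoff of 0.01. The deposited lists end higher, at a lowest −log10 p of 3.52 and −log10 q of 1.30 in the control library and 3.46 and 1.32 with IFN-γ, so missing peaks refer to these limits. Use of the inputs in peak calling is not given in the sources used here. The authors' deposited values are, for each peak, the fold enrichment (a ratio to local background), −log10 p, −log10 q and a display score, which was not used. Pileups were solved from fold and −log10 p with the MACS formulas (largest relative error 6.21e-06).

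Genes and MANE transcripts came from GENCODE 44. The strongest peak of a gene was that with the highest −log10 p. Peaks overlapping by at least 1 bp were paired 1 to 1, and pileup ratios were divided by 1.46. The sequence under the strongest H3 peak is not reported here. Exact copies were sought for 150-base windows. The genes named were the best ranked peaks, the extremes of each class and of the ratios, all calls in a single library and the strongest of each further list. The members and lists were chosen with earlier results of these data known. The 10-fold threshold, the 200 kb blocks, the depth of 40 fragments and the CCGGAA search were chosen after the data were seen. The solving of pileups, promoter calls, pairing and copy search were tested on simulated data. With 1 library per condition no p-value was computed, and the intervals leave out variation between replicates. Tools were samtools 1.23.1, pysam 0.24.0, scipy 1.17.1, numpy 2.4.6, matplotlib 3.10.9 and pandas 2.3.3 under Python 3.11.15.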

Additional observations from a re-analysis of the deposited data

Results flagged for a closer look

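Peaks inside the histone gene blocks but away from every histone promoter were not counted as promoter peaks. There were 9 in the control list and 11 with IFN-γ, of which 1 in each lay at the promoter of HFE, the iron regulator. Another of the 11, at 4.87-fold, overlapped the control peak of H1-2 and entered the ratios as its partner. Their median fold enrichment was 6.81 and 4.82, respectively. The strongest, at chr6:26136366-26136894 on GRCh38 in the IFN-γ library, reached 15.1-fold on 55 fragments, and the control peak there 7.64-fold on 22 fragments.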

How the results depend on the processing

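Of 48 alternatives tried, 44 kept the result within its limits. These limits were wide. A count passed within a fixed ratio of the main count, so that a fall from 35 to 26 genes with IFN-γ passed. Medians, ratios and motif shares passed inside the interval of the main value. Leaving out peaks with a copied stretch kept all 28 pairs, so it could not move the ratio. They covered promoter windows of 500 bp and 3 kb, a single TSS per gene, the summit in place of the peak, the gene of the nearest TSS, stricter q-values, lists of equal length and other scalings of the ratio. The number of histone genes with a promoter peak ranged from 31 to 42 in the control library and from 26 to 39 with IFN-γ. The gap to all coding genes was wider where the summit had to lie in the window, at 44.1% against 54.4% with IFN-γ and 41.2% against 51.4% in both libraries, and for the gene of the nearest TSS, at 38.2% against 45.4% with IFN-γ. The median ratio of 1.03 ranged from 0.990, without the pairs nearest to an H4 gene, to 1.03. The other 4 alternatives used another motif. The GGAA core in place of the ETS octamer gave 89.7% of control summits and 93.3% with IFN-γ, and CCGGAAGT alone gave 0% in each list, since the core is a shorter and CCGGAAGT a narrower search. Within 50 bp of the summit the octamer was at 3.33% of IFN-γ histone summits in place of 10%. The alternatives without copied genes, without H4 pairs and with both peaks at a histone promoter were added after the data were seen. No paired analysis was possible because the study made 1 Flag library for either treatment. The median histone summit held 15 fragments in the control library, which leaves wide intervals on most ratios.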
